A study of Mus musculus with 9 samples.

Results

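The genes described here are 9 mouse genes whose human counterparts have been linked to inherited Parkinson disease (PD): Chchd2, Pink1, Park7, Lrrk2, Vps35, Atp13a2, Fbxo7, Uchl1 and Dnajc6. They were found by the gene symbol that the deposited tables pair with each Ensembl identifier, among 47729 genes in the count files, and all 9 passed the filter on low counts that 17988 genes passed. Chchd2 was chosen by its measured fold changes of Dot1l(fl/fl) and Dot1l(fl/+) against Dot1l(+/+) in these libraries, so its values in all comparisons are a description and carry no test. The other 8 genes are linked to the same disease, and they too were listed with earlier results of these data known.

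The libraries came from midbrain dopamine (DA) neurons of C57/Bl6 mouse embryos at E15.75, and 8 of 9 labelled samples had values: 3 control pools with genotype Dot1l(+/+), 3 heterozygous pools with Dot1l(fl/+) and 2 homozygous pools with Dot1l(fl/fl). The remaining homozygous sample, Dot1l(fl/fl) 3, was not analysed here. Every genotype, the controls included, carried Pitx3-Cre on 1 allele and the Rosa-lox-stop-lox-YFP reporter, so that cells with Cre activity were sorted by YFP fluorescence. Cre was expressed from the Pitx3 locus, and Dot1l, a histone H3 lysine methyltransferase, had no, 1 or 2 floxed alleles. Each library was a pool of embryos, to which each litter gave an embryo of every genotype per the study's methods, but the labels do not say which libraries share litters. The p-values therefore measure the spread between pools. Between 13616922 and 43674673 reads were counted per library, the 2 Dot1l(fl/fl) libraries being the shallowest.

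Inherited PD genes meet in a few processes. CHCHD2 is a small protein of the mitochondrial intermembrane space that binds the MICOS complex, the scaffold of the cristae. PINK1 is a kinase that accumulates on damaged mitochondria and starts their removal with the ubiquitin ligase parkin, FBXO7 acts in ubiquitin ligase complexes and has been tied to the same removal, and DJ-1, the product of Park7, protects against oxidative stress. VPS35 is the core of the retromer, which returns cargo from endosomes, LRRK2 phosphorylates Rab GTPases on such membranes, ATP13A2 is a lysosomal polyamine transporter, UCHL1 is an abundant neuronal ubiquitin hydrolase, and auxilin, made from Dnajc6, helps Hsc70 to strip clathrin from synaptic vesicles.

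The targeted gene was read first. Dot1l stood at 105.2, 84.6 and 94.6 CPM (read counts relative to library size, scaled by TMM) in the Dot1l(+/+) libraries, at 75.5, 65.6 and 76.2 CPM in Dot1l(fl/+), and at 64.9 and 99.1 CPM in Dot1l(fl/fl) 1 and 2 as labelled. The library labelled Dot1l(fl/fl) 2 therefore lay inside the Dot1l(+/+) range. Cre removes a single exon, whereas these counts cover the whole gene, so the gene count is a weak check of the labels, and the values of Chchd2, Dnajc6 and the leading gene lists are also given without that library.

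Chchd2 (ENSMUSG00000070493, GRCm38 chr5:129881156-129887470, minus strand) is the member with a clear order of genotypes. It also has near-identical copies elsewhere in the genome, and these limit how its reads can be placed. Its coding sequence of 462 bases aligned over its full length to the processed pseudogene Gm12350 (chr4:34485832-34486293, plus strand) with 457 identical bases. A stretch of 404 coding bases is also present without a mismatch in a transcript of Zbed5, a protein-coding gene that lies close by on the other strand (chr5:129895723-129903623). Of the 413 windows of 50 bases in the Chchd2 coding sequence, 381 (92.3%) occur in a transcript of at least 1 of 5 other genes, Zbed5, Gm12350, Gm13202 (named Chchd2-ps in GENCODE), Gm6222 and Gm4995. Over the whole protein-coding transcript of 915 bases, UTRs included, 48.4% of the windows occur in these genes. How the authors' counting treated reads that match several places was not given in the sources used here, so the Chchd2 count is uncertain as a count of that gene alone.

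With that limit, Chchd2 was at 59.1, 52.9 and 50.4 CPM in the Dot1l(+/+) libraries, at 72.3, 76.8 and 80.1 CPM in Dot1l(fl/+), and at 85.2 and 84.5 CPM in Dot1l(fl/fl). No Dot1l(fl/+) library reached down into the Dot1l(+/+) range or up into the Dot1l(fl/fl) range. Of all 17988 genes tested, 69 (0.384%) were ordered upwards with the number of floxed alleles without overlap and 79 (0.439%) downwards; since Chchd2 was picked for this contrast, nothing is read from its place among them. The fitted log2 difference was 0.65 ± 0.12 (SE; 1.57-fold) between Dot1l(fl/fl) and Dot1l(+/+), and 0.50 ± 0.11 (SE; 1.41-fold) between Dot1l(fl/+) and Dot1l(+/+). Leaving out each library in turn gave 0.60 to 0.71 for the former, with 0.65 when the library labelled Dot1l(fl/fl) 2 was the one omitted, and 0.45 to 0.57 for the latter. Dot1l(fl/fl) and Dot1l(fl/+), whose libraries also entered the choice of the gene, differed by 0.15 ± 0.13 (SE) on the log2 scale.

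The copies were then examined beside the gene. Gm12350 was at 29.6, 31.2 and 27.6 CPM in Dot1l(+/+), at 36.1, 31.2 and 32.5 CPM in Dot1l(fl/+), and at 39.6 and 37.9 CPM in Dot1l(fl/fl). Its Dot1l(fl/fl) libraries were above all others, with a log2 difference from Dot1l(+/+) of 0.40 ± 0.16 (SE) that did not pass (edgeR, adjusted p = 0.442). Zbed5 was at 17.5, 20.4 and 16.6 CPM in Dot1l(+/+), at 20.7, 14.3 and 15.5 CPM in Dot1l(fl/+), and at 16.1 and 15.2 CPM in Dot1l(fl/fl), which is not the order seen for Chchd2. Gm13202 was at 2.012 to 2.625 CPM in Dot1l(+/+), at 1.265 to 4.502 CPM in Dot1l(fl/+), and at 1.64 and 0.720 CPM in Dot1l(fl/fl). Zbed5 and Gm13202 were thus below the Dot1l(+/+) range in both Dot1l(fl/fl) libraries, a separation that 11.6% of all genes tested met. Gm6222 stayed between 0.347 and 1.54 CPM, Gm11978 was at no more than 0.360 CPM, and Gm4995 and Gm11803 were at 0 in all 8 libraries.

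Chchd2 held 60.0% to 64.2% of the reads of the gene and its pseudogene copies together in Dot1l(+/+), 63.8% to 69.7% in Dot1l(fl/+), and 66.8% to 68.0% in Dot1l(fl/fl). When the counts of the 6 pseudogene copies were added to those of the gene, the sum was 92.0, 88.2 and 80.3 CPM in Dot1l(+/+), 113.4, 111.8 and 114.9 CPM in Dot1l(fl/+), and 127.5 and 124.2 CPM in Dot1l(fl/fl). The genotypes kept their order without overlap, and the log2 difference from Dot1l(+/+) was 0.54 in Dot1l(fl/fl) and 0.39 in Dot1l(fl/+). With Zbed5 added as well, the sums still did not overlap, at 96.9 to 109.5, 126.1 to 134.1 and 139.4 to 143.6 CPM, and the log2 differences were 0.43 and 0.31. Both sums were chosen after the values were seen, and both contain Chchd2, which holds most of the reads of the first. Their order thus partly repeats that of Chchd2 and is no separate support for it. Reads that the counting may have dropped are in neither sum.

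**Figure D1:**
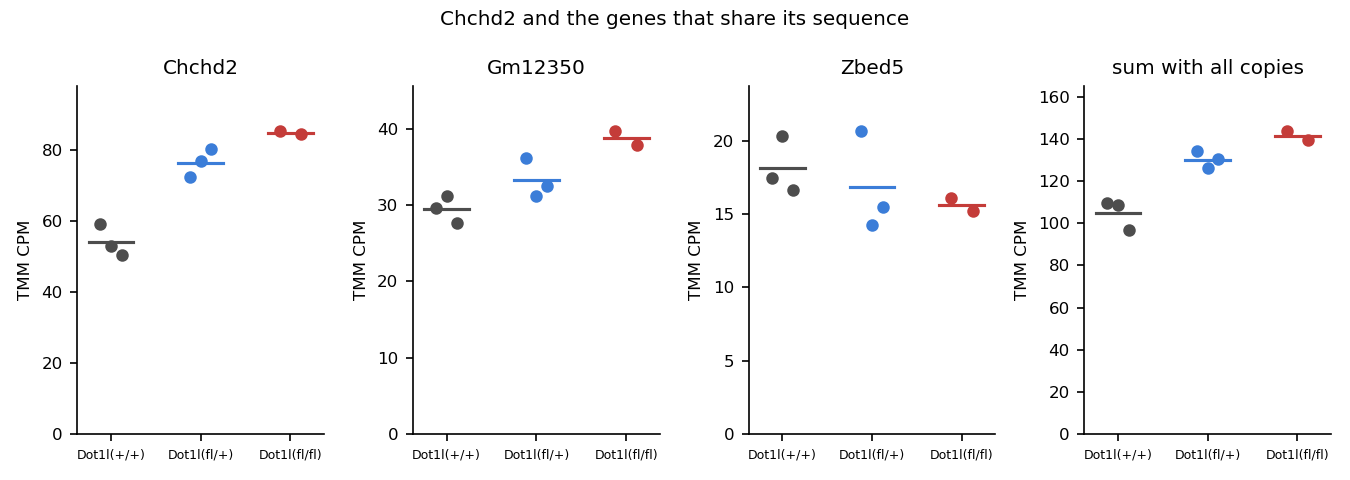
Levels of Chchd2, Gm12350, Zbed5 and their sum with the other Chchd2 pseudogene copies, in TMM CPM on axes that start at 0; each point is a library (3 Dot1l(+/+), 3 Dot1l(fl/+), 2 Dot1l(fl/fl)) and each bar a mean. Chchd2 and the sum, which contains Chchd2, separate the 3 genotypes, while the Zbed5 libraries of Dot1l(fl/+) span those of the other genotypes.

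Sums of marker genes also separated the Dot1l(fl/fl) libraries from those of Dot1l(+/+) in some cases. Among single genes tested, such a separation was met by 12.1% upwards and by 11.6% downwards. The sums do not show how single markers moved. The summed level of 10 DA neuron markers, all counted in every library, was 4674 to 5652 CPM in Dot1l(fl/fl), under the 5831 to 6702 CPM of Dot1l(+/+) and the 5824 to 6245 CPM of Dot1l(fl/+). The sum of 8 genes that respond to cell dissociation was 1244 to 1264 CPM in Dot1l(fl/fl), against 937 to 1076 CPM and 903 to 1137 CPM. Of the markers of 8 other cell classes, those of blood, microglia, radial glia or progenitors, glutamatergic neurons and serotonergic neurons overlapped between Dot1l(fl/fl) and Dot1l(+/+). The 6 GABAergic markers summed to 235 to 264 CPM in Dot1l(fl/fl) against 204 to 225 CPM in Dot1l(+/+), the 6 endothelial markers to 9.14 to 11.8 against 4.90 to 8.33 CPM, and the 5 oligodendrocyte precursor markers to 7.49 to 9.07 against 9.19 to 14.1 CPM. The 7 blood markers reached 40.0 CPM in the library labelled Dot1l(fl/fl) 2 and at most 18.7 CPM elsewhere. In Dot1l(fl/+), the DA marker and dissociation sums overlapped those of Dot1l(+/+). The part of these measures in the gene values of Dot1l(fl/fl) or Dot1l(fl/+) was not tested. Fewer cells of a type cannot be told apart from less RNA per cell.

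The members differed far more in level than between genotypes. Per kilobase of exon in Dot1l(+/+), Uchl1 was highest at 889 ± 75.8 CPM per kb (SD, n = 3). Atp13a2 followed at 68.0 ± 2.29, Dnajc6 at 59.9 ± 3.87, Park7 at 51.0 ± 1.44 and Pink1 at 34.5 ± 4.78 CPM per kb (SD, n = 3). Vps35 at 24.6 ± 2.96 and Chchd2 at 23.9 ± 1.98 CPM per kb were the only neighbours in this order whose libraries overlapped. Fbxo7 at 2.169 ± 0.266 and Lrrk2 at 0.279 ± 0.0756 CPM per kb were the lowest.

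The order depended on which length was used. The exon length of Chchd2, 2269 bases, includes a transcript with a retained intron, and the protein-coding transcript has 915 bases. Per kilobase of each gene's longest protein-coding transcript, Chchd2 was at 59.2 ± 4.91 CPM per kb (SD, n = 3), above Pink1 at 38.8 ± 5.38 and overlapping Vps35 at 62.9 ± 7.57 and Dnajc6 at 66.6 ± 4.29. Park7 moved up to the second place at 135 ± 3.81 CPM per kb, and Uchl1, Fbxo7 and Lrrk2 kept theirs.

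**Figure D2:**
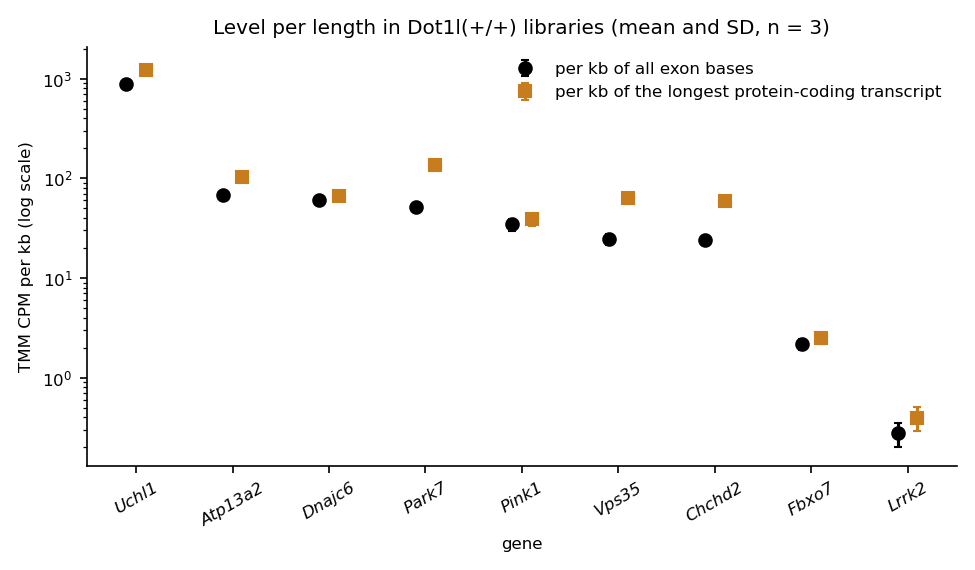
Level per length of each gene in the 3 Dot1l(+/+) libraries (mean and SD), in TMM CPM per kilobase on a log axis, with all exon bases (circles) or the longest protein-coding transcript (squares) as the length. Uchl1 lies above every other gene and Lrrk2 lowest by either length.

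Pink1 and Park7 are further members with a mitochondrial role, and Fbxo7, tied to the removal of damaged mitochondria, is described below. Pink1 (ENSMUSG00000028756, chr4:138313409-138326307, minus strand) was at 103.5, 78.3 and 94.7 CPM in Dot1l(+/+), at 108.2, 93.9 and 101.8 CPM in Dot1l(fl/+), and at 115.8 and 95.7 CPM in Dot1l(fl/fl). All 3 genotypes overlapped. The log2 difference from Dot1l(+/+) was 0.20 in Dot1l(fl/fl) (95% interval -0.07 to 0.47, edgeR adjusted p = 0.684) and 0.14 in Dot1l(fl/+) (95% interval -0.10 to 0.37, adjusted p = 0.986). Leaving out each library in turn moved the former from 0.05, without Dot1l(fl/fl) replicate 1, to 0.33, without Dot1l(fl/fl) replicate 2. The latter moved from 0.03 without Dot1l(+/+) replicate 2 to 0.23 without Dot1l(+/+) replicate 1.

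Park7 (ENSMUSG00000028964, chr4:150897133-150914437, minus strand) was at 122.3, 129.2 and 127.5 CPM in Dot1l(+/+), at 140.3, 138.1 and 145.2 CPM in Dot1l(fl/+), and at 138.6 and 135.2 CPM in Dot1l(fl/fl). Every library with a floxed allele was above the control range. Such a separation upwards was met by 12.1% of all genes tested for Dot1l(fl/fl) and by 5.56% for Dot1l(fl/+). The log2 differences were small, 0.12 (95% interval -0.10 to 0.33, edgeR adjusted p = 0.821) and 0.16 (95% interval -0.03 to 0.35, adjusted p = 0.940).

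Dnajc6, the gene of auxilin (ENSMUSG00000028528, chr4:101496648-101642799, plus strand), was the single member that was lower in Dot1l(fl/fl). It was at 356.9, 330.1 and 375.6 CPM in Dot1l(+/+), at 338.7, 337.1 and 312.8 CPM in Dot1l(fl/+), and at 299.5 and 281.9 CPM in Dot1l(fl/fl). Both Dot1l(fl/fl) libraries were below the other 6, a separation downwards that 11.6% of all genes tested met against Dot1l(+/+) and 9.57% against Dot1l(fl/+). The log2 difference from Dot1l(+/+) was -0.28 ± 0.10 (SE, 95% interval -0.48 to -0.08). It did not pass edgeR's quasi-likelihood test after adjustment (edgeR adjusted p = 0.316, unadjusted p = 0.00718), while DESeq2 on the same counts called it (adjusted p = 0.0326). Leaving out each library in turn gave -0.33 to -0.24, the latter without the library labelled Dot1l(fl/fl) 2 (edgeR adjusted p = 0.413). Dot1l(fl/+) differed from Dot1l(+/+) by -0.10 (95% interval -0.28 to 0.07, edgeR adjusted p = 0.983). The DA marker sum given above was likewise lowest in the Dot1l(fl/fl) libraries, and its part in the Dnajc6 values was not tested.

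**Figure D3:**
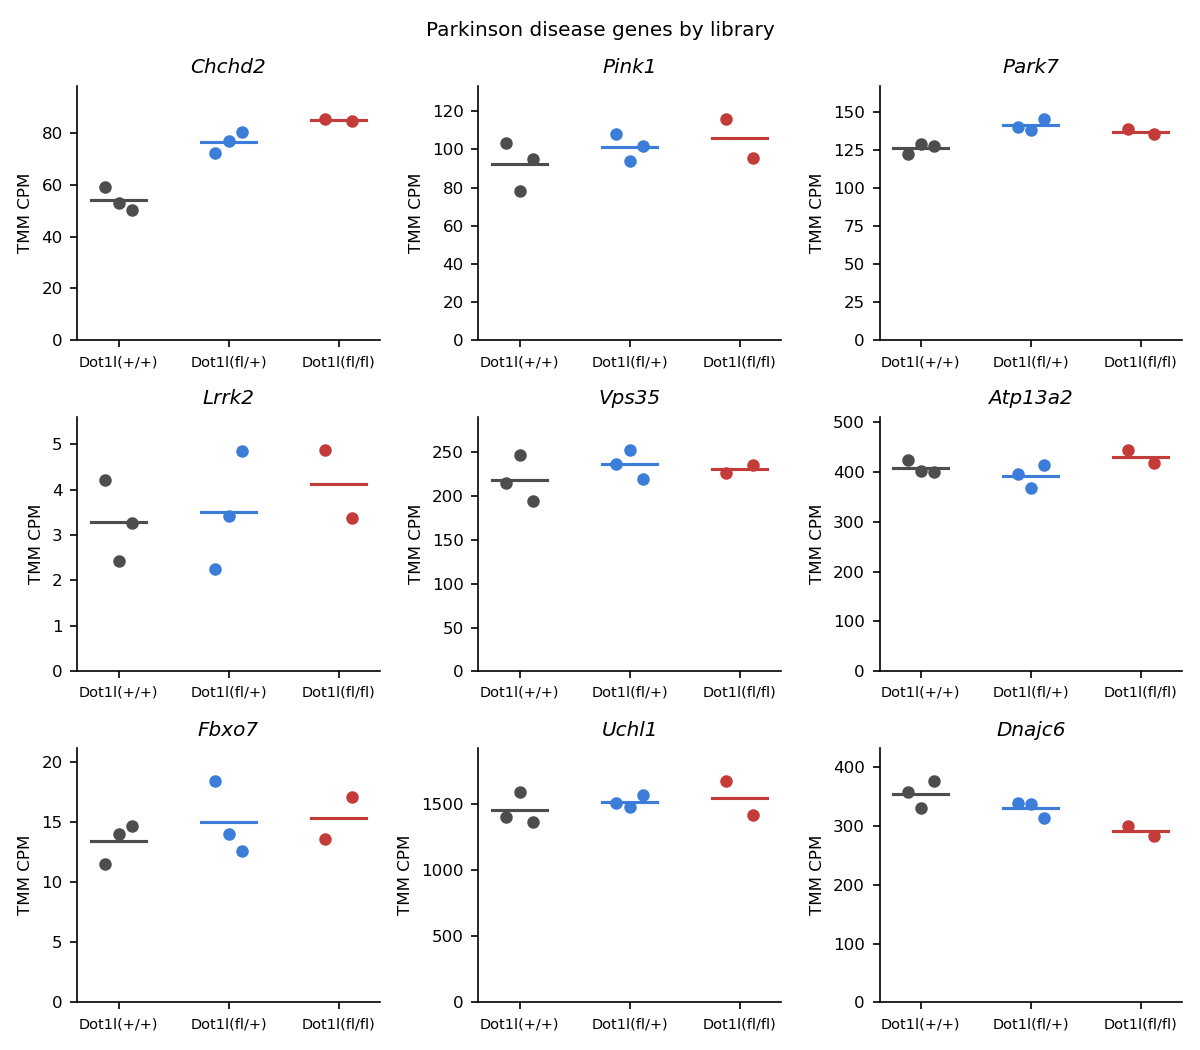
Level of each of the 9 genes in every library, in TMM CPM on axes that start at 0; points are libraries (3 Dot1l(+/+), 3 Dot1l(fl/+), 2 Dot1l(fl/fl)) and bars are means. Chchd2 shows 3 separate genotypes, Dnajc6 is lowest in both Dot1l(fl/fl) libraries, and Pink1, Lrrk2, Vps35, Fbxo7 and Uchl1 overlap between genotypes.

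Atp13a2 (ENSMUSG00000036622, chr4:140986873-141007330, plus strand) was at 423.9, 401.1 and 399.1 CPM in Dot1l(+/+), at 395.1, 366.5 and 413.6 CPM in Dot1l(fl/+), and at 442.9 and 416.6 CPM in Dot1l(fl/fl). The Dot1l(fl/fl) libraries were above those of Dot1l(fl/+), as were those of 10.2% of all genes tested, but not above those of Dot1l(+/+). The log2 difference was 0.13 from Dot1l(fl/+) (95% interval -0.06 to 0.32, edgeR adjusted p = 0.998) and 0.07 from Dot1l(+/+) (adjusted p = 0.899). Between Dot1l(fl/+) and Dot1l(+/+) it was -0.06 (adjusted p = 0.997), and it turned to 0.04 with an offset for gene length and GC content.

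Vps35, the retromer subunit (ENSMUSG00000031696, chr8:85260392-85299802, minus strand), was at 214.4, 246.8 and 194.7 CPM in Dot1l(+/+), at 236.4, 252.2 and 219.3 CPM in Dot1l(fl/+), and at 226.7 and 235.3 CPM in Dot1l(fl/fl). Its 171 exon bases shared with Orc6 on the other strand make its count less certain. Uchl1 (ENSMUSG00000029223, chr5:66676091-66687234, plus strand) was at 1401, 1591 and 1359 CPM, at 1503, 1476 and 1566 CPM, and at 1671 and 1415 CPM in the same order of genotypes. Both genes overlapped between all genotypes. The log2 difference between Dot1l(fl/fl) and Dot1l(+/+) was 0.08 for Vps35 (95% interval -0.15 to 0.31, edgeR adjusted p = 0.919) and 0.09 for Uchl1 (95% interval -0.08 to 0.26, adjusted p = 0.826), and that of Uchl1 turned to -0.04 without Dot1l(fl/fl) replicate 1.

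The kinase gene Lrrk2 and the F-box gene Fbxo7 were the least precise. Lrrk2 (ENSMUSG00000036273, chr15:91673175-91816120, plus strand) was at 4.21, 2.42 and 3.26 CPM in Dot1l(+/+), at 2.25, 3.41 and 4.85 CPM in Dot1l(fl/+), and at 4.87 and 3.38 CPM in Dot1l(fl/fl). Fbxo7 (ENSMUSG00000001786, chr10:86021972-86051873, plus strand) was at 11.5, 14.0 and 14.6 CPM, at 18.4, 14.0 and 12.6 CPM, and at 13.6 and 17.1 CPM. All genotypes overlapped for both. The log2 difference between Dot1l(fl/fl) and Dot1l(+/+) had 95% intervals of -0.60 to 1.26 for Lrrk2 and -0.29 to 0.67 for Fbxo7, so changes of moderate size in either gene were not resolved.

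Across the set, edgeR called none of the 17988 genes at the adjusted threshold of 0.05 in any comparison (0.0% in each). DESeq2 called 226 genes between Dot1l(fl/fl) and Dot1l(+/+), Dnajc6 among them, none between Dot1l(fl/+) and Dot1l(+/+), and 1 between Dot1l(fl/fl) and Dot1l(fl/+). Between Dot1l(fl/fl) and Dot1l(+/+) it gave some genes no adjusted p, Lrrk2 and Fbxo7 among them. Its calls there thus came from fewer than 17988 genes. Among the 8 members other than Chchd2, 1 had an unadjusted p under 0.05 between Dot1l(fl/fl) and Dot1l(+/+), against 9.27% of all genes tested, and none had between Dot1l(fl/+) and Dot1l(+/+), against 5.02%, or between Dot1l(fl/fl) and Dot1l(fl/+), against 4.02%. These 8 genes were higher in Dot1l(fl/fl) than in Dot1l(+/+) in 7 cases, with a median log2 difference of 0.10, where 49.5% of all genes were higher. In Dot1l(fl/+) against Dot1l(+/+) 6 of the 8 were higher, again with a median of 0.10, where 49.0% of all genes were higher. Both comparisons share the Dot1l(+/+) libraries. In Dot1l(fl/fl) against Dot1l(fl/+) 5 of the 8 were higher, with a median of 0.03, where 50.2% of all genes were higher.

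**Figure D4:**
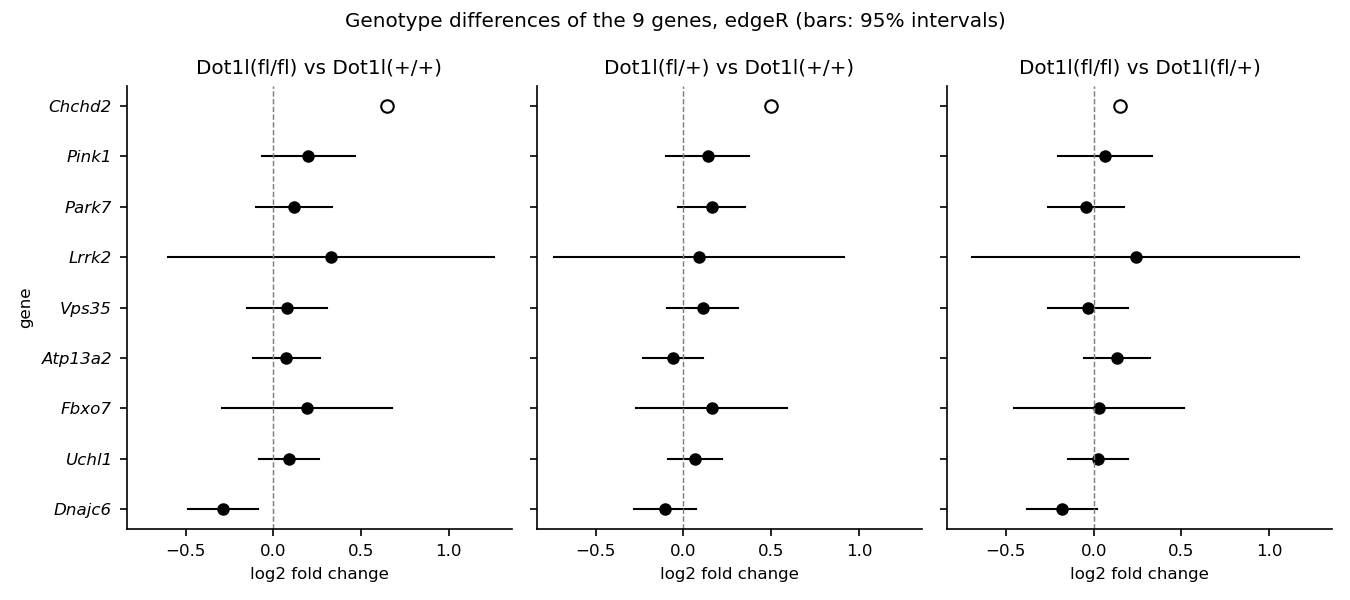
Fitted log2 fold change of each gene in the 3 comparisons, with 95% intervals from edgeR; open circles for Chchd2, which these libraries chose, are drawn with no interval. The interval of Dnajc6 between Dot1l(fl/fl) and Dot1l(+/+) lies below 0 before adjustment, and those of Lrrk2 are the widest.

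The partners of CHCHD2 and the genes of MICOS came next. Of 18 tested, 16 were higher in Dot1l(fl/fl) than in Dot1l(+/+), with a median log2 difference of 0.23 against -0.003 over all genes. The median was 0.21 without Dot1l(fl/fl) replicate 2, 0.11 without Dot1l(fl/fl) replicate 1 and 0.13 without Dot1l(+/+) replicate 3. Between Dot1l(fl/+) and Dot1l(+/+), 15 of the 18 were higher with a median of 0.10, which ranged from 0.02 without Dot1l(+/+) replicate 3 to 0.17 without Dot1l(+/+) replicate 2. Immt, which encodes mitofilin of the MICOS core, was at 148.0, 145.7 and 147.9 CPM in Dot1l(+/+), at 160.0, 171.3 and 167.4 CPM in Dot1l(fl/+), and at 172.6 and 173.8 CPM in Dot1l(fl/fl). Its genotypes were in the same order as those of Chchd2 without overlap, although the log2 difference of 0.23 ± 0.10 (SE) between Dot1l(fl/fl) and Dot1l(+/+) did not pass (edgeR, adjusted p = 0.475). Chchd10, the closest relative of Chchd2, did not share that order, with 15.9, 16.9 and 13.1 CPM in Dot1l(+/+), 13.3, 14.5 and 16.3 CPM in Dot1l(fl/+), and 24.4 and 11.3 CPM in Dot1l(fl/fl). The import receptor gene Chchd4 ranged from 39.3 to 56.3 CPM over all libraries with overlap between genotypes, and Cox4i2 was at or under the floor of 3 counts per library throughout.

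Partners of the other mitochondrial members showed smaller differences. Of 25 genes of PINK1 and parkin mitophagy, 18 were higher in Dot1l(fl/fl) than in Dot1l(+/+), with a median log2 difference of 0.07, or 0.01 without Dot1l(fl/fl) replicate 2 and 0.04 without Dot1l(+/+) replicate 3. Park2, the gene of parkin, ranged from 2.16 to 5.86 CPM with a 95% interval of -1.31 to 0.64 for this difference, whereas Tomm20 of the outer membrane translocase differed by 0.03 (95% interval -0.18 to 0.24). The protease gene Parl differed by 0.02 (95% interval -0.33 to 0.37) and the deubiquitinase gene Usp30 by -0.05 (95% interval -0.36 to 0.26).

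The list for DJ-1 and oxidative stress had the second largest median. Of 24 genes tested, 17 were higher in Dot1l(fl/fl) than in Dot1l(+/+), with a median of 0.18. Without Dot1l(fl/fl) replicate 1 the median was 0.07, without Dot1l(fl/fl) replicate 2 it was 0.22, and without Dot1l(+/+) replicate 3 it was 0.12. Of these 24 genes, 5 had an unadjusted p under 0.05 in the upward direction, against 4.24% of all genes. They were Sod1, Gpx1, Prdx2, Prdx6 and Glrx3, chosen after their values were seen, and each encodes an enzyme or thiol protein of redox defence. Other redox genes of the list were lower, among them Nqo1 (-1.62, the lowest value), Gpx4 (-0.31), Txn2 (-0.11) and Txnrd1 (-0.10). No gene of the list had an unadjusted edgeR p under 0.05 in the downward direction. Sod1, the cytosolic superoxide dismutase, differed by 0.54 ± 0.13 (SE, edgeR adjusted p = 0.209). Nfe2l2, a transcription factor of this response, was between 0.512 and 2.68 CPM, too low for a useful interval.

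The retromer, LRRK2 and lysosomal lists had medians between -0.02 and 0.08 in this comparison. Leaving out each library in turn gave 0.04 to 0.09, -0.06 to 0.05 and 0.04 to 0.10, so the sign of the LRRK2 median was not stable: it was above 0 without Dot1l(+/+) replicate 2, Dot1l(+/+) replicate 3 or Dot1l(fl/fl) replicate 2. Of 20 retromer and endosomal sorting genes 15 were higher in Dot1l(fl/fl). Vps29, a direct partner of VPS35, was at 100.5, 112.8 and 98.7 CPM in Dot1l(+/+), at 119.6, 108.1 and 126.3 CPM in Dot1l(fl/+), and at 138.0 and 116.6 CPM in Dot1l(fl/fl), with a log2 difference of 0.29 between Dot1l(fl/fl) and Dot1l(+/+) (edgeR adjusted p = 0.428), while Vps26a and Vps26b differed by 0.06 and 0.08. Of 20 LRRK2 substrates and partners 10 were higher, and the substrate genes Rab8a, Rab10 and Rab12 differed by 0.05, 0.03 and 0.20, none of which passed (edgeR adjusted p of 0.626 to 0.976). Rab29 and Lrrk1 were at no more than 0.769 and 2.82 CPM in any library. Of 20 lysosomal genes 13 were higher, and Atp13a3, a relative of Atp13a2 in the list, differed by -0.10 (95% interval -0.45 to 0.25). The relatives Atp13a1, Atp13a4 and Atp13a5 in the same list differed by 0.06, 2.0 and -0.47.

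Of 22 genes of clathrin uncoating, 14 were higher in Dot1l(fl/fl) than in Dot1l(+/+), with a median of 0.06 that turned to -0.03 without Dot1l(fl/fl) replicate 1 and was 0.01 without Dot1l(+/+) replicate 2 and 0.12 without Dot1l(fl/fl) replicate 2. Hspa8, the gene of Hsc70 with which auxilin works, was at 397.0, 580.5 and 465.4 CPM in Dot1l(+/+), at 483.1, 602.0 and 427.8 CPM in Dot1l(fl/+), and at 633.6 and 638.0 CPM in Dot1l(fl/fl). It differed by 0.40 ± 0.13 (SE, edgeR adjusted p = 0.287), opposite in sign to Dnajc6. Synj1, a phosphatase gene of the same step and itself linked to PD, was at 189.4, 171.9 and 199.5 CPM in Dot1l(+/+). It was at 207.5, 188.3 and 165.9 CPM in Dot1l(fl/+), which overlapped both other genotypes, and at 160.9 and 168.8 CPM in Dot1l(fl/fl). Dot1l(fl/fl) differed from Dot1l(+/+) by -0.18 ± 0.11 (SE, edgeR adjusted p = 0.669), with a separation downwards that 11.6% of all genes tested met. Gak, the auxilin relative expressed in most tissues, differed by 0.01 (95% interval -0.24 to 0.26).

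Of 20 genes of the FBXO7, UCHL1 and ubiquitin list, 16 were higher in Dot1l(fl/fl) and 18 in Dot1l(fl/+) than in Dot1l(+/+). Skp1a, the partner of F-box proteins, differed by 0.22 in Dot1l(fl/fl) (adjusted p = 0.539) and by 0.21 in Dot1l(fl/+) (edgeR adjusted p = 0.940), and Cul1 by 0.01 and 0.02. Uchl3, the relative of Uchl1, differed by 0.06 in Dot1l(fl/fl) (95% interval -0.34 to 0.45). Of 20 other PD genes, 8 were higher in Dot1l(fl/fl), with a median of -0.09, the lowest of the 9 lists and -0.14 to -0.04 with each library left out in turn. None of the lists had a gene past the adjusted threshold in edgeR. Counts under an unadjusted p of 0.05 between Dot1l(fl/fl) and Dot1l(+/+) were 1 to 5 higher and 0 to 1 lower per list, where 4.24% and 5.03% of all genes were called so. Between Dot1l(fl/+) and Dot1l(+/+) they were 0 to 3 higher and none lower, where 2.16% and 2.86% of all genes were.

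**Figure D5:**
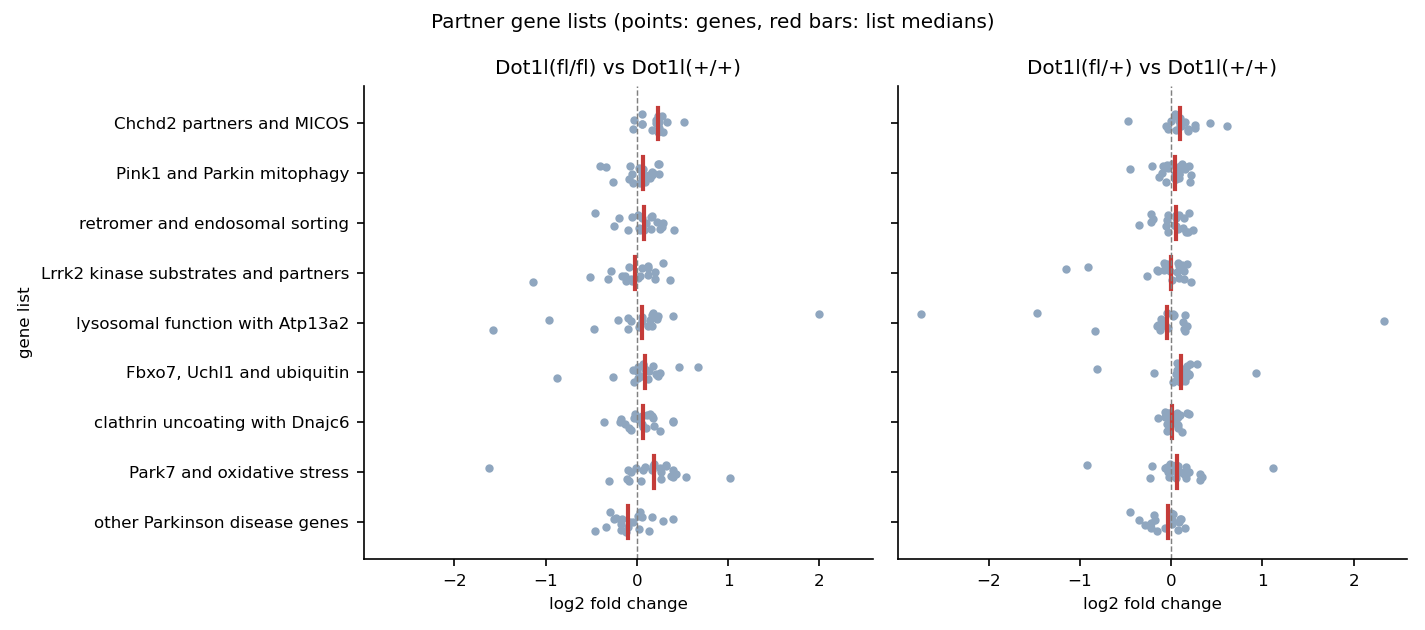
Log2 fold change of the genes in 9 partner lists for Dot1l(fl/fl) (left) and Dot1l(fl/+) (right) against the shared Dot1l(+/+) libraries; points are genes with counts above the filter, spread vertically for sight only, and red bars are list medians. The median of the CHCHD2 and MICOS list is highest on the left, at 0.23, and the lysosomal list has the widest spread there, from -1.58 to 2.00.

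Genes were finally ranked by how closely their log2 CPM followed that of Chchd2 over the 8 libraries, among 9952 genes with a mean of at least 10 CPM. The highest Pearson r belonged to Atp5f1, a subunit of the mitochondrial ATP synthase (0.965), Rpl9-ps6 (0.965), Immt (0.963), Dync2li1 (0.957) and Gm2000 (0.955). The lowest belonged to Cxxc5 (-0.976), Micall1 (-0.969), Mtss1 (-0.968), Camsap2 (-0.967) and Inha (-0.952). Atp5f1 and Immt also had a mean of at least 100 CPM, so requiring that level kept them among the leading 5 by construction. Among the members, Park7 had an r of 0.78 with Chchd2 and Dnajc6 one of -0.79, and Pink1 one of 0.56. These values describe 8 libraries that differ in genotype and depth, and the Dot1l(fl/fl) libraries are the shallowest. The part of genotype or depth in the r values was not tested. The named genes were picked as the ends of the ranking.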

How the data were processed

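RNA of YFP-sorted midbrain neurons was made into NEBNext Ultra Directional libraries. For each library the authors deposited a table of raw read counts, whole numbers by Ensembl gene. Per the submitters' processing notes, bcl2fastq 2.17, Trimmomatic 0.30, DESeq2 1.10.1 and GRCm38.p4 were used; the aligner, the counting tool, whether strand was used and how reads with several matches were handled were not given in the sources used here. The deposited comparison tables were used only to pair gene symbols (the unit there is other, a name) with identifiers; the authors' fold changes and p-values in them were not used.

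Groups and replicate numbers came from the sample titles. All 8 libraries were fitted together in edgeR 4.0.16 (R 4.3.3): filterByExpr, TMM, quasi-likelihood F test, Benjamini-Hochberg adjustment over 17988 genes, threshold 0.05. CPM values are scaled by TMM, and 3 counts, the limit a count of 0 allows, are 0.0687 to 0.220 CPM per library. That limit covers counting error only. Replicates differed by 17.7 to 42.7 times the sampling variance (chi-square per degree of freedom), so none was a repeat of another. The fitting step was tested on simulated counts. Gene coordinates, exon lengths and transcript sequences were from GENCODE M21 (GRCm38); sequence copies were found with blastn (at least 90% identity over at least 100 bases).

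The 9 genes, the partner lists and the marker lists were chosen with earlier results of these data known. Genes named by rule were all 9 members, 24 partners set whatever they showed, any list gene past the adjusted threshold, the 5 genes most and the 5 least like Chchd2, and Dot1l. Outside that rule, further genes of the oxidative stress list, Sod1 among them, and of the lysosomal list were named after their values were seen. The Chchd2 copies were named for their sequence. Cox4i1 of the partner list matched no symbol. Alternatives were RLE and upper-quartile scaling, no filter, DESeq2 1.42.0, fits of 2 genotypes, a replicate block, an offset for length and GC content, and leaving out each library; the sums with Chchd2 copies and the protein-coding transcript length were added after seeing the data. The labels give no batch. Some sequence and marker results are not reported here.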

Additional observations from a re-analysis of the deposited data

How the results depend on the processing

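edgeR called no gene in any comparison after adjustment. The homozygous against the control comparison had 1667 genes with an unadjusted edgeR p below 0.05, the heterozygous against the control comparison 903, and the homozygous against the heterozygous comparison 723. In that order, the counts of called genes were 106, 11 and 14 with no filter, and 226, 0 and 1 with DESeq2. The replicate block gave 6, 0 and 4 calls, the length and GC offset 8, 0 and 0, and the replicate block with that offset 15, 0 and 5. Leaving out each library gave 0 to 75, 0 to 0 and 0 to 7 calls, with 75 in Dot1l(fl/fl) against Dot1l(+/+) without Dot1l(+/+) replicate 2 and 50 without Dot1l(fl/fl) replicate 2. The cause of these shifts was not tested.

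Each litter gave an embryo of every genotype, but no label links a replicate number to its litters. Deviations from the genotype means correlated at -0.031 to 0.045 in 7 same-numbered pairs and at -0.051 to 0.045 in 14 pairs with other numbers. These ranges cannot decide on pairing, since the deviations of the 2 Dot1l(fl/fl) libraries mirror each other and give values of both signs. Between Dot1l(+/+) and Dot1l(fl/+), same-numbered pairs gave 0.045, -0.007 and 0.038, and pairs with other numbers -0.051 to 0.011. Whether same-numbered pools share litters stayed undecided, and no pairing was assumed. With the replicate block Chchd2 differed by 0.64 in Dot1l(fl/fl) and 0.50 in Dot1l(fl/+) from Dot1l(+/+).

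Of the 8 members other than Chchd2, Dnajc6 alone crossed the threshold, with DESeq2. Lrrk2 and Fbxo7 had no adjusted p from DESeq2 in Dot1l(fl/fl) against Dot1l(+/+), so neither could cross it there. Sign changes concerned small differences that passed no test: Atp13a2 in Dot1l(fl/+) against Dot1l(+/+) was 0.04 with the length and GC offset, with or without the replicate block, and Uchl1 in Dot1l(fl/fl) against Dot1l(fl/+) was -0.02 with both. Leaving out each library gave -0.04 to 0.20 for Uchl1 in Dot1l(fl/fl) against Dot1l(+/+), and -0.22 to 0.33 for Lrrk2 and -0.01 to 0.27 for Fbxo7 in Dot1l(fl/+) against Dot1l(+/+). In Dot1l(fl/fl) against Dot1l(fl/+) it gave -0.09 to 0.19 for Pink1, -0.06 to 0.55 for Lrrk2, -0.08 to 0.02 for Vps35, -0.14 to 0.20 for Fbxo7 and -0.11 to 0.14 for Uchl1. List medians in Dot1l(fl/fl) against Dot1l(+/+) also moved with the length and GC offset. They were 0.18 for CHCHD2 and MICOS, 0.13 for oxidative stress, 0.04 for mitophagy and -0.03 for other PD genes. The LRRK2 median turned to 0.04 and that of clathrin uncoating was 0.12. Retromer, lysosomal and ubiquitin medians were 0.07, 0.08 and 0.08, and that of all genes was 0.01.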
